A study of Mus musculus with 3 samples.

Results

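The genes described here were the 22 fibroblast growth factor (FGF) ligands, the 4 FGF receptors *Fgfr1* to *Fgfr4*, 4 adaptors that pass the receptor signal on (*Frs2*, *Frs3*, *Grb2* and *Sos1*), and 11 feedback and target genes of the ERK kinase, namely 6 *Sprouty* and *Spred* genes, the phosphatase genes *Dusp4* and *Dusp6*, and *Etv1*, *Etv4* and *Etv5*. They were taken by gene symbol, and all 41 were present among the 23421 genes of the deposited table. The table holds 1 RNA-seq library each of wild-type, tw18/+ and tw18/tw18 embryos at E6.5, all labelled as strain 129/SvEv. For its in situ embryos the study describes crosses between tw18/+ animals. It also proposes that non-inbred genetic backgrounds, differing between embryos, might underlie variable phenotypes. The tw18 haplotype carries a large deletion on Chr 17 that removes *Ppp2r1a*, the gene of a scaffold subunit of the phosphatase PP2A, together with neighbouring genes, so the homozygote lacks more than 1 gene. The study also knocked out *Ppp2r1a* and rescued tw18/tw18 embryos with a *Ppp2r1a* transgene. From this it concludes that loss of *Ppp2r1a* alone accounts for the embryonic lethality. No knockout or rescued embryos are among the libraries used here. The labels give the tissue as epiblast, whereas the study's text says that RNA came from the embryo proper, epiblast with the visceral endoderm around it. The number of embryos behind each library and their sex are not given in the sources used here. In its E6.5 in situ series the study describes the mutant embryos as slightly younger. Genotype and developmental stage can therefore not be told apart in the tw18/tw18 library.

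Most FGFs are secreted proteins that bind receptor tyrosine kinases together with heparan sulphate. *Fgf11*, *Fgf12*, *Fgf13* and *Fgf14* encode intracellular relatives that are not secreted, and they are counted among the ligands here by symbol only. The activated receptor phosphorylates FRS2, which recruits GRB2 and SOS1, and these switch on RAS and the kinases RAF, MEK and ERK. ERK activity raises transcription of the ETS-family factors *Etv1*, *Etv4* and *Etv5* and of inhibitors (Sprouty, Spred and DUSP proteins) that dampen the same pathway, so that levels of these genes are widely used as a readout of FGF signalling. In the gastrulating mouse embryo *Fgf8* and *Fgfr1* are required for mesoderm cells to leave the primitive streak, and *Fgf4* from the epiblast sustains the neighbouring trophoblast.

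*Ppp2r1a* (Chr 17: 20945454 to 20965905, GRCm38.p6) stood at FPKM 146 in wild type, 81.7 in tw18/+ and 12.8 in tw18/tw18, in the order of the labelled genotypes. As the haplotype lacks this gene, transcripts of it at 8.72% of the wild-type level in tw18/tw18 were not accounted for by the genotype, and their source was not tested. FPKM is the number of fragments per kilobase of transcript, scaled to the number of mapped fragments in the library, so it allows levels of different genes to be set side by side. From the steps between low FPKM values the depth was estimated at 13700000, 19300000 and 19000000 fragments. The epiblast marker *Pou5f1* stood at FPKM 628, 721 and 274 and the visceral endoderm marker *Apoa1* at 246, 233 and 337 in wild type, tw18/+ and tw18/tw18. Decidual transcripts were present in all 3 libraries. The decidual prolactins *Prl8a2* (FPKM 1504, 155 and 377) and *Prl3c1* were highest in wild type, whereas the other 12 markers of decidua and uterine stroma summed to FPKM 258, 252 and 968 and each was higher in tw18/tw18 than in wild type. Of the 10 primitive streak markers, *T* and *Mesp1* were listed at 0 in tw18/tw18. A value listed at exactly 0 can be a failed estimate and does not show absence. By in situ hybridization at E6.5 the study found *T* undetectable in some tw18/tw18 embryos and severely reduced in another.

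With 1 library per genotype there was no replicate error and no test between genotypes was possible. A gene was called higher or lower when its log2 ratio of FPKM was at least 1 in size and the higher FPKM of the pair was at least 1. The study used the same fold but kept a gene that reached FPKM 1 in any library. With no pseudocount (a constant added to each FPKM), as here, that filter would also call *Fgf11* and *Fgf17* lower in tw18/tw18 against wild type. Those calls would rest on 4 and 9 fragments in wild type. The study gives a finite log2 ratio for *T*. Without a pseudocount that ratio is not finite here, since *T* was listed at 0 in tw18/tw18. How the study computed its ratios is not stated, and the calls of *Fgf11* and *Fgf17* under its own ratios were not tested. Intervals given with log2 ratios are 95% Clopper-Pearson intervals of the estimated fragment numbers. They cover counting error only, since reads amplified by PCR without molecular identifiers are not independent molecules and embryos of 1 genotype also differ. The 3 comparisons share libraries and are therefore not independent of each other.

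To show the DNA in front of the genes that carry the results below, the 250 bases before the transcription start are given for the ligands with the highest level and with about 2.02-fold its wild-type level in tw18/tw18 (*Fgf5* and *Fgf4*), for the adaptor *Frs2*, and for the feedback genes *Dusp6* and *Spry2*. The sequences are those of RefSeq (GRCm38.p6), read 5′ to 3′ on the strand of the gene. They lie at chr5:98253934-98254183 (+) for *Fgf5*, chr7:144861136-144861385 (+) for *Fgf4*, chr10:117148475-117148724 (−) for *Frs2*, chr10:99262981-99263230 (+) for *Dusp6* and chr14:105896820-105897069 (−) for *Spry2*. Capitals mark 2 words bound by ETS-family factors, CCGGAA (on the other strand TTCCGG) and AGGAAG (on the other strand CTTCCT).
Fgf5: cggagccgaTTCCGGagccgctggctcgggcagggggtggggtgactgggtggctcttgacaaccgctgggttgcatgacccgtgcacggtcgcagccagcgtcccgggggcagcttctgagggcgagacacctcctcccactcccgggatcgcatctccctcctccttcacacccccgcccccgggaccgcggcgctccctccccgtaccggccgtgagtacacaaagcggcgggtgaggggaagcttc
Fgf4: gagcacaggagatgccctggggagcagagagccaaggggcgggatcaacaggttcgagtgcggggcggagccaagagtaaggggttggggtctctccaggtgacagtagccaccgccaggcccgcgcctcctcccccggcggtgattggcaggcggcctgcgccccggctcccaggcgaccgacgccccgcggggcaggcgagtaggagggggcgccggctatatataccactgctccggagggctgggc
Frs2: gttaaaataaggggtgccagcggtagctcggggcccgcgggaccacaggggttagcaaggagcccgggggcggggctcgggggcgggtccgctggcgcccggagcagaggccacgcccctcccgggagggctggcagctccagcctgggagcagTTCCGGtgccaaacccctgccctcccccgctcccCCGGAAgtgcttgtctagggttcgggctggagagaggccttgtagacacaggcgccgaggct
Dusp6: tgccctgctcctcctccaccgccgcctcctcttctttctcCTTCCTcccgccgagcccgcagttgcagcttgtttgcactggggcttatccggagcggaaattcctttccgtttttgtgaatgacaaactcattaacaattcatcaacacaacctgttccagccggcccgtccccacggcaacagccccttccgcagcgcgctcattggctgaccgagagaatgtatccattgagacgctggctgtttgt
Spry2: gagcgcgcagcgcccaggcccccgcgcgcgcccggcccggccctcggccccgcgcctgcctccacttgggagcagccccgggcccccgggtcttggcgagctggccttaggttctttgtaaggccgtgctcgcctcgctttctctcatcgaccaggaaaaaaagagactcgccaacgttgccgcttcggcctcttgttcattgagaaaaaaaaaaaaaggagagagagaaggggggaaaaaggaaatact

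A RefSeq promoter was matched for 31 of the 41 genes. The word CCGGAA, on either strand, lay in 4 of the 31 (12.9%), against 12.2% of 27025 promoters of the same length, 1 per gene. Those 4 were *Fgf5*, *Fgfr4*, *Sos1* and *Frs2*, the last with 1 copy on each strand, at 96 and 62 bases before the start. The word AGGAAG lay in 6 of the 31 (19.4%) against 29.2% of all promoters, and neither word contains the other. Among the 8 matched feedback and target genes CCGGAA was found in 0 and AGGAAG in 3, *Dusp6* at 210 bases, *Etv1* at 8 bases and *Spred2*.

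Of the 41 genes, 29 reached FPKM 1 in at least 1 library, 7 stayed below it and 5 were listed at 0 throughout. Between tw18/tw18 and wild type 27 genes could be compared and 7 (25.9%) passed the fold, against 22.0% of 12917 genes in the whole table. *Fgf2*, *Fgf3* and *Fgf4* were higher in tw18/tw18 (11.1% of the 27, against 15.1% of all genes), and *Fgf8*, *Fgf13*, *Fgf15* and *Etv1* were lower (14.8%, against 6.94%). With a pseudocount of 1 none of the 3 higher calls remained, at log2 ratios of 0.86, 0.87 and 0.85. The 4 lower calls remained (14.8% called in all, against 13.6% of all genes). As deposited, the total share was thus close to that of the whole table. It was 33.3% against 22.2% after centring on the median log2 ratio and 40.7% against 24.2% with equal FPKM sums. With the median log2 ratio of 12 epiblast markers subtracted it was 33.3% against 33.8%. By role, 75.0% of the 8 ligands compared passed the fold as deposited, and *Etv1* was the only other gene. The median log2 ratio of the 27 genes was -0.27, beside -0.01 over all genes compared. Between tw18/+ and wild type 3 of 28 genes passed the fold (10.7%, against 9.72% of 12426 genes), all of them higher in tw18/+ (4.70% of all genes), namely *Fgf3*, *Fgf11* and *Fgf17*, and 0 lower (5.02% of all genes). Between tw18/tw18 and tw18/+ the number was 9 of 29 (31.0%, against 20.5% of 12846 genes). *Fgf2*, *Fgfr2*, *Fgfr3* and *Frs2* were higher in tw18/tw18 (13.8% of the 29, against 14.9% of all genes). *Fgf8*, *Fgf11*, *Fgf13*, *Fgf15* and *Fgf17* were lower (17.2%, against 5.65%). The calls of 2 of these genes, *Fgf2* and *Fgf11*, rest on a value listed at 0 in 1 library of the pair, which can be a failed estimate. The 4 higher and 5 lower genes became 8 and 4 with equal FPKM sums and 8 and 2 relative to the epiblast list, that is, with the median log2 ratio of 12 epiblast markers subtracted.

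**Figure D1:**
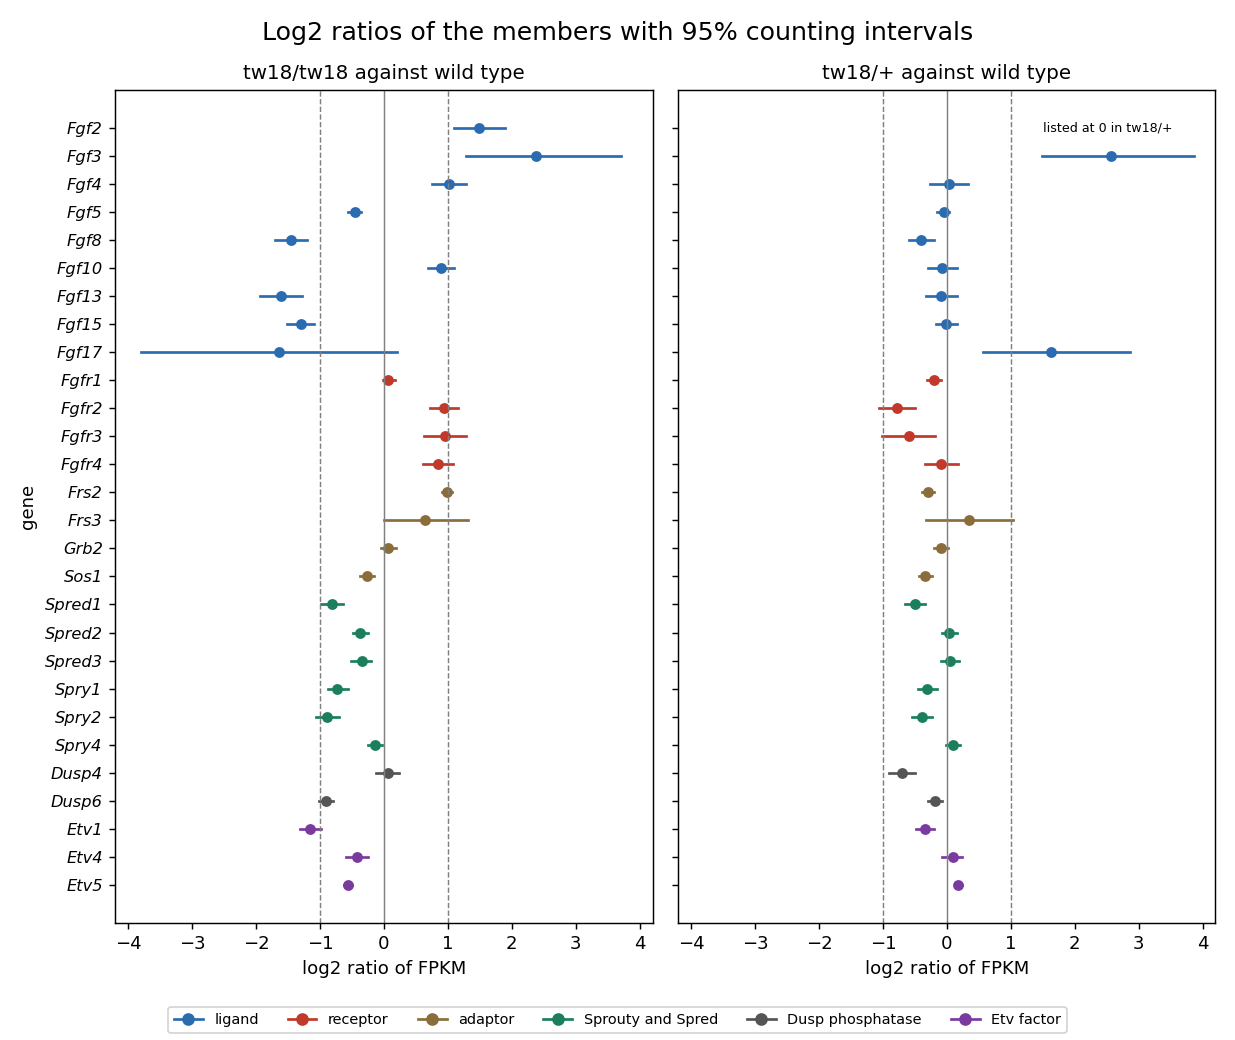
Log2 ratio of FPKM for the genes that reached FPKM 1 in at least 1 library and had a ratio in tw18/tw18 against wild type (left) and tw18/+ against wild type (right), with bars for the 95% counting interval and dashed lines at a log2 ratio of 1 in either direction; colours give the role. In the left panel the Sprouty, Spred and Etv genes lie left of 0 and *Fgfr2*, *Fgfr3* and *Fgfr4* right of 0, while the bar of *Fgfr1* spans 0. *Fgf17* (-1.64) was below FPKM 1 in both libraries of that panel and was not called.

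The ligands held the widest differences. *Fgf5*, the standard marker of the post-implantation epiblast, was the most abundant ligand in each library, with FPKM 73.0 in wild type, 70.3 in tw18/+ and 53.0 in tw18/tw18. Its log2 ratio of tw18/tw18 to wild type was -0.46 (interval -0.56 to -0.36), short of the fold, and that of tw18/+ was -0.05. *Fgf5* made up 51.0%, 51.8% and 54.8% of the summed ligand FPKM, which was 143, 136 and 96.8. Its share thus changed little while the summed level was lowest in tw18/tw18.

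*Fgf8* encodes the ligand needed for mesoderm to migrate away from the streak. Its level was FPKM 27.6 in wild type, 20.9 in tw18/+ and 10.1 in tw18/tw18. The log2 ratio was -1.45 (interval -1.70 to -1.21) in tw18/tw18 and -0.40 (interval -0.60 to -0.20) in tw18/+, both against wild type, so tw18/+ stood between the other genotypes. *Fgf15*, a ligand of embryonic ectoderm and gut, was at FPKM 22.2, 22.0 and 8.98, with a log2 ratio of -1.30 (interval -1.51 to -1.10) in tw18/tw18. *Fgf13*, which encodes an intracellular FGF-related protein that is not secreted, was at FPKM 7.90, 7.42 and 2.59, with a log2 ratio of -1.61 (interval -1.94 to -1.28). For *Fgf15* and *Fgf13* wild type and tw18/+ were alike within counting error and only tw18/tw18 was low. *Fgf13* lies on Chr X, and 21.3% of the 50-base words of *Fgf15* also occur in other annotated transcripts, so reads of *Fgf15* are less certain.

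Markers of the epiblast and streak were mostly lower in the same library, where 6.94% of all genes were lower and 15.1% higher against wild type. The epiblast markers had a median log2 ratio of -0.61 in tw18/tw18 against wild type, with 2 of 12 lower and 0 higher past the fold. Of the 12, 11 lay below 0 and 1 above it (*Fst*, 0.52). Their summed FPKM was 2500.3 in wild type, 2680.4 in tw18/+ and 1418 in tw18/tw18. The streak and nascent mesoderm markers had a median of -1.65, with 7 of 10 lower and 0 higher past the fold and a summed FPKM of 209.5, 144 and 102. Of the 10, 8 lay below 0 and 2 above it (*Evx1*, 0.23, and *Lhx1*, 0.19). Taken relative to the epiblast list, the log2 ratios in tw18/tw18 against wild type were -0.84 for *Fgf8*, -0.69 for *Fgf15* and -0.99 for *Fgf13*, all short of the fold, and that of *Fgf5* turned to 0.15. In RNA from whole tissue, fewer cells of a type, less RNA per cell and a younger stage cannot be told apart.

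*Fgf4* and *Fgf10* had their highest level in tw18/tw18. *Fgf4*, which in the mouse acts on trophoblast stem cells through FGFR2, was at FPKM 3.85 in wild type, 3.92 in tw18/+ and 7.76 in tw18/tw18. Its log2 ratio was 1.01 (interval 0.75 to 1.28) against wild type and 0.99 against tw18/+, at the edge of the fold in both. *Fgf10*, a ligand of mesenchyme that signals to epithelium, was at FPKM 5.16, 4.92 and 9.56, with a log2 ratio of 0.89 (interval 0.69 to 1.09) against wild type, short of the fold. Both were alike in wild type and tw18/+ and about 2.02-fold and 1.85-fold higher in tw18/tw18.

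*Fgf3*, a ligand of the early streak and hindbrain, was at FPKM 0.243 in wild type, 1.43 in tw18/+ and 1.27 in tw18/tw18, resting on only some 8, 64 and 55 fragments. In this ligand tw18/+ and tw18/tw18 stood together above wild type, with log2 ratios of 2.56 (interval 1.48 to 3.87) and 2.38 (interval 1.29 to 3.70). *Fgf3*, *Fgf4* and *Fgf15* lie side by side on Chr 7 between 144838612 and 144900953 (GRCm38.p6). In tw18/tw18 against wild type these 3 neighbours therefore differed in direction, *Fgf3* and *Fgf4* being higher and *Fgf15* lower.

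The remaining ligands were low in at least 1 library. *Fgf2* was at FPKM 0.834 in wild type (about 68 fragments), listed at 0 in tw18/+ and at 2.33 in tw18/tw18 (about 265 fragments), with a log2 ratio of 1.48 (interval 1.09 to 1.89) in tw18/tw18 against wild type. Its exons overlap *Nudt6* on the other strand, which stood at FPKM 2.43, 1.35 and 3.11, and a value listed at exactly 0 can be a failed estimate, so no fold against tw18/+ is given. *Fgf11* was at FPKM 0.107, 1.99 and 0 in wild type, tw18/+ and tw18/tw18, and *Fgf17*, a relative of *Fgf8*, at 0.386, 1.20 and 0.124. These 2 genes were highest in tw18/+. Their log2 ratios against wild type were 4.22 (interval 2.83 to 6.10, about 4 and 107 fragments) and 1.63 (interval 0.56 to 2.87, about 9 and 39 fragments). A further 7 ligands, *Fgf1*, *Fgf7*, *Fgf9*, *Fgf12*, *Fgf14*, *Fgf16* and *Fgf18*, never passed FPKM 0.887. *Fgf6*, *Fgf20*, *Fgf21*, *Fgf22* and *Fgf23* were listed at 0 in all 3 libraries, where 3 fragments would have given FPKM 0.0333 to 0.230 depending on gene and library.

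**Figure D2:**
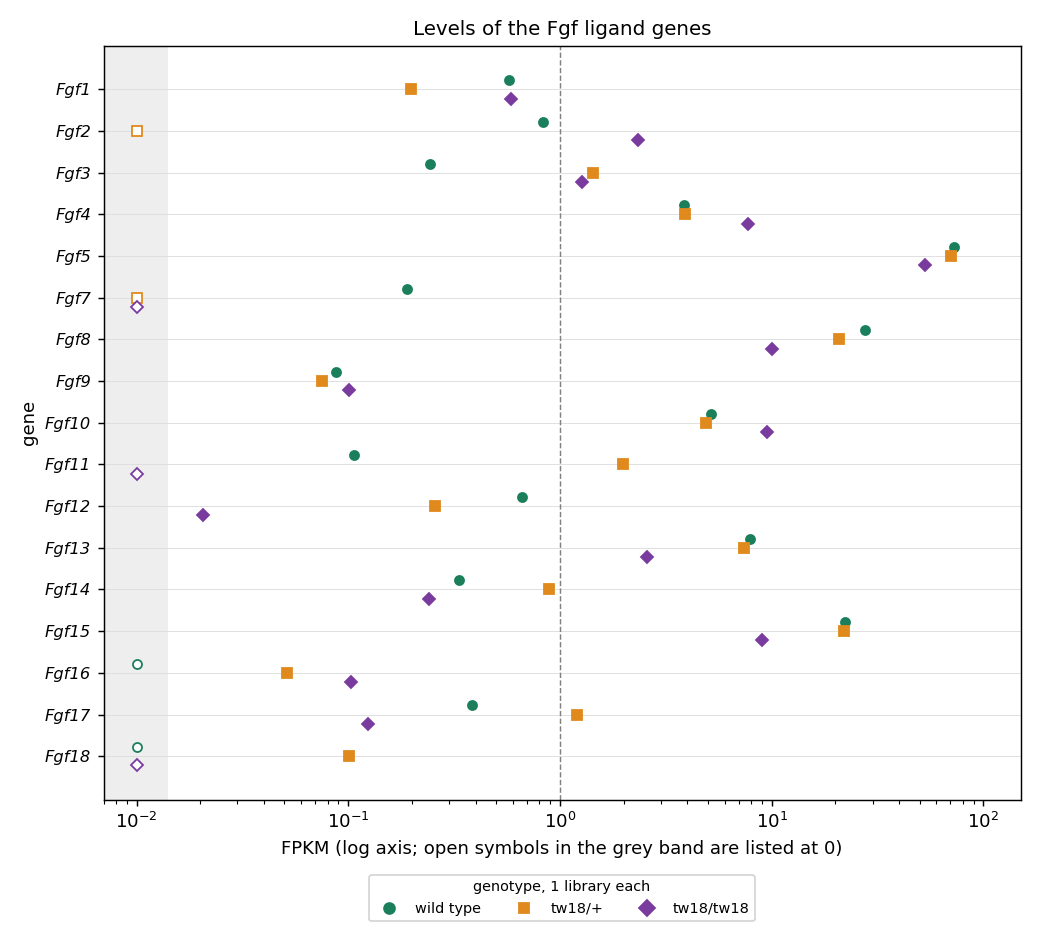
FPKM (log axis) of each FGF ligand not listed at 0 throughout, with 1 symbol per library and open symbols in the grey band for a value listed at 0. *Fgf5* lies at the top of the range in all 3 genotypes, while *Fgf8* (27.6, 20.9 and 10.1) and *Fgf15* (22.2, 22.0 and 8.98) are lowest in tw18/tw18 and *Fgf4* (3.85, 3.92 and 7.76) and *Fgf10* (5.16, 4.92 and 9.56) highest there.

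The make-up of the summed ligand FPKM differed, a sum that includes *Fgf13* and the other intracellular relatives. *Fgf8* made up 19.3% of the summed ligand FPKM in wild type, 15.4% in tw18/+ and 10.4% in tw18/tw18. *Fgf15* made up 15.5%, 16.2% and 9.27%. *Fgf10* made up 3.61%, 3.63% and 9.88%, and *Fgf4* 2.69%, 2.89% and 8.02%. *Fgf10* and *Fgf4* were thus minor ligands in wild type and tw18/+, whereas in tw18/tw18 each was of the same order as *Fgf8* and *Fgf15*.

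Of the 4 receptors, *Fgfr2*, *Fgfr3* and *Fgfr4* were higher in tw18/tw18 and *Fgfr1* was level within counting error, and none passed the fold against wild type. *Fgfr1*, the main receptor of the epiblast, was at FPKM 25.1 in wild type, 21.8 in tw18/+ and 26.5 in tw18/tw18, a log2 ratio of 0.07 (interval -0.02 to 0.17) for tw18/tw18. *Fgfr2*, the receptor of the trophoblast lineage, was at FPKM 4.39, 2.56 and 8.41, with log2 ratios of 0.94 (interval 0.72 to 1.16) against wild type and 1.72 (interval 1.48 to 1.96) against tw18/+. *Fgfr1* hardly differed between genotypes, while *Fgfr2* was lowest in tw18/+ and highest in tw18/tw18.

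*Fgfr3* was at FPKM 1.85, 1.22 and 3.58, with log2 ratios of 0.96 (interval 0.63 to 1.29) against wild type and 1.56 (interval 1.22 to 1.90) against tw18/+. *Fgfr4*, found in endoderm, was at FPKM 4.65, 4.37 and 8.35, with log2 ratios of 0.85 (interval 0.61 to 1.08) and 0.94. The 3 less abundant receptors thus lay just inside the fold against wild type, and *Fgfr2* and *Fgfr3* passed it against tw18/+. *Fgfr1* made up 69.8% of the summed receptor FPKM in wild type, 72.8% in tw18/+ and 56.5% in tw18/tw18, and *Fgfr2* 12.2%, 8.53% and 18.0%. As a share of the summed receptor FPKM, *Fgfr1* had a log2 ratio of -0.30 in tw18/tw18 against wild type, while the other 3 receptors stayed above 0. With the libraries rescaled to equal FPKM sums, which raises the tw18/tw18 values, 3 receptors passed the fold against wild type.

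**Figure D3:**
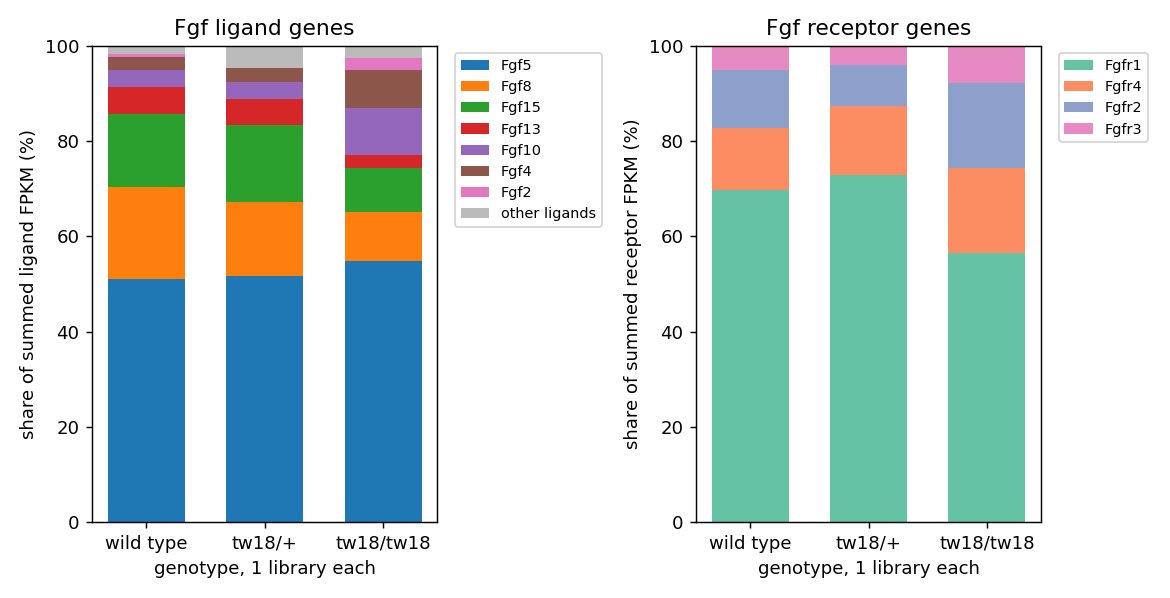
Share of each ligand in the summed FGF ligand FPKM (left) and of each receptor in the summed FPKM of *Fgfr1* to *Fgfr4* (right), in percent, with 1 stacked bar per library. In tw18/tw18 the share of *Fgf8* (10.4%) and of *Fgfr1* (56.5%) was the smallest of the 3 libraries.

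Markers of tissues around the epiblast were mostly higher in the same library, where 15.1% of all genes were higher and 6.94% lower against wild type. In tw18/tw18 against wild type 7 of 8 extra-embryonic ectoderm markers were higher and 1 was lower (median log2 ratio 1.43, summed FPKM 93.4 in wild type, 74.4 in tw18/+ and 87.9 in tw18/tw18). Of 12 visceral endoderm markers 2 were higher, near the share of all genes, and 0 lower (median 0.50, summed FPKM 1039, 1018 and 1492). Of 5 parietal endoderm markers 3 were higher and 0 lower (median 1.0, summed FPKM 289.6, 319 and 638). Decidua and uterine stroma markers had 11 of 14 higher and 2 lower (median 2.15, summed FPKM 1884, 421 and 1370.4), and endothelial markers 5 of 7 higher and 0 lower (median 2.26, summed FPKM 39.2, 26.0 and 91.6). The decidual sum was carried by *Prl8a2* and *Prl3c1*, the 2 lower genes, and that of the extra-embryonic ectoderm by *Eomes*, which is also a streak marker and was its 1 lower gene. Without these genes, 11 of 12 decidual markers were higher (summed FPKM 258, 252 and 968), as were 7 of 7 extra-embryonic ectoderm markers (summed FPKM 16.3, 16.4 and 50.9). Immune markers had 2 of 5 higher and 1 lower (median 0.73, summed FPKM 9.56, 6.96 and 18.2), with *Cd52* listed at 0 in tw18/+ and tw18/tw18. The part of these tissues in the higher receptor, *Fgf4*, *Fgf10* and *Frs2* values was not tested.

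Among the adaptors, *Frs2*, the docking protein that links FGF receptors to RAS, stood out. Its FPKM was 20.9 in wild type, 16.9 in tw18/+ and 41.3 in tw18/tw18, resting on roughly 1839, 2104 and 5056 fragments. Its log2 ratio came to 0.99 (interval 0.91 to 1.06) against wild type, at the edge of the fold, and 1.29 (interval 1.21 to 1.36) against tw18/+. *Frs3*, its less abundant relative, was at FPKM 1.02, 1.29 and 1.59, with a log2 ratio of 0.64 (interval -0.00 to 1.32) in tw18/tw18 against wild type, from 30 to 65 fragments.

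*Grb2* and *Sos1*, the downstream adaptor and the RAS exchange factor, were closer to level. *Grb2* was at FPKM 28.4, 26.6 and 29.9, and *Sos1* at 12.3, 9.71 and 10.2. The log2 ratios in tw18/tw18 against wild type were 0.07 and -0.27. *Frs3* (Chr 17: 47687607 to 47704286) and *Sos1* (Chr 17: 80393752 to 80480453) share a chromosome with *Ppp2r1a* but lie distal to it.

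The feedback and target genes of ERK mostly went the other way from *Fgfr2*, *Fgfr3* and *Fgfr4*. In tw18/tw18 against wild type 10 of 11 had a log2 ratio below 0 and the median was -0.56, but only *Etv1* passed the fold. This direction depended on the scaling, since relative to the epiblast list 5 of the 11 were below 0, 6 were above it and the median was 0.05, while with equal FPKM sums 9 were below 0 and the median was -0.35.

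The Sprouty and Spred proteins act between the receptor and RAF to limit activation of ERK. *Spry2* was at FPKM 22.4 in wild type, 17.0 in tw18/+ and 12.1 in tw18/tw18, a log2 ratio of -0.89 (interval -1.06 to -0.71) for tw18/tw18. *Spry1* was at 21.6, 17.5 and 13.1, a log2 ratio of -0.73 (interval -0.88 to -0.57). *Spred1* was at 13.0, 9.17 and 7.41, a log2 ratio of -0.81 (interval -0.98 to -0.64). In these 3 genes tw18/+ stood between wild type and tw18/tw18, with log2 ratios of -0.39, -0.31 and -0.50 against wild type.

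*Spred2* was at FPKM 29.7, 30.6 and 23.0, *Spred3* at 11.9, 12.3 and 9.28, and *Spry4* at 18.2, 19.4 and 16.5. In these genes tw18/+ was at or slightly above wild type and tw18/tw18 was the lowest, with log2 ratios of -0.37, -0.35 and -0.14 against wild type. Of the 50-base words of *Spry1* 21.8% also occur in another annotated transcript, and the values of *Spry1* are less certain for it.

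DUSP6 and DUSP4 remove phosphates from ERK, the former in the cytoplasm and the latter in the nucleus. *Dusp6* was at FPKM 36.9 in wild type, 32.5 in tw18/+ and 19.7 in tw18/tw18, a log2 ratio of -0.90 (interval -1.02 to -0.79) for tw18/tw18. *Dusp4* was at 12.1, 7.46 and 12.6, with log2 ratios of 0.06 (interval -0.12 to 0.23) for tw18/tw18 and -0.70 (interval -0.90 to -0.50) for tw18/+. These phosphatase genes thus had different patterns, *Dusp6* being lowest in tw18/tw18 and *Dusp4* lowest in tw18/+.

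The Etv factors are ETS-family transcription factors of the PEA3 group. *Etv5*, the most abundant of the 11 feedback and target genes, was at FPKM 80.9 in wild type, 91.1 in tw18/+ and 54.7 in tw18/tw18, with log2 ratios of -0.56 (interval -0.63 to -0.50) for tw18/tw18 and 0.17 for tw18/+. *Etv4* was at 17.3, 18.3 and 12.9, a log2 ratio of -0.42 for tw18/tw18. *Etv1* was at 11.4, 8.96 and 5.14, a log2 ratio of -1.15 (interval -1.31 to -0.99) for tw18/tw18 and -0.35 for tw18/+. All 3 were lowest in tw18/tw18, and *Etv1* came inside the fold with equal FPKM sums (-0.94) and relative to the epiblast list (-0.54). For *Etv5* 24.5% of its 50-base words occur in a processed copy elsewhere in the annotation, so its level is less certain.

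**Figure D4:**
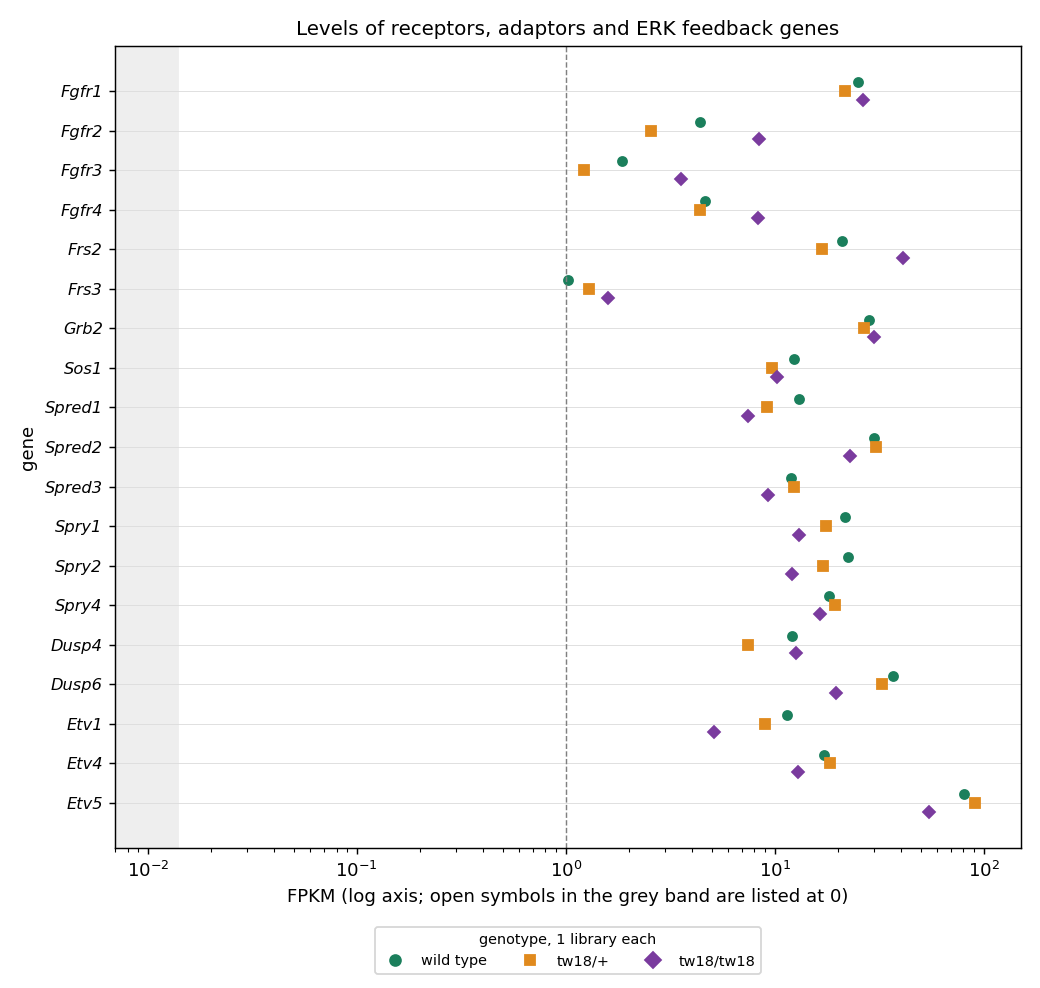
FPKM (log axis) of the receptors, adaptors and the 11 feedback and target genes of ERK, with 1 symbol per library. In tw18/tw18, *Fgfr2*, *Fgfr3*, *Fgfr4* and *Frs2* lie to the right of both other genotypes, and as deposited 10 of the 11 feedback and target genes lie to the left of wild type, a number that was 5 relative to the epiblast list.

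The pathway between receptor and target genes was then examined with lists of further genes. Of 22 genes of the RAS-ERK cascade, 1 was higher and 0 lower in tw18/tw18 against wild type, beside 15.1% higher and 6.94% lower in the whole table. Their median log2 ratio was -0.06. *Rps6ka3*, a kinase activated by ERK, was the higher gene, at FPKM 6.65, 11.5 and 22.1 in wild type, tw18/+ and tw18/tw18 and a log2 ratio of 1.73. *Araf*, a RAF kinase, stood at FPKM 18.1, 22.3 and 34.5 and *Gab1*, a docking protein, at 13.9, 15.5 and 25.0, both short of the fold. The remaining genes of the list also stayed inside the fold in tw18/tw18 against wild type.

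Other inhibitors of the pathway were mixed in direction. Of 10 such genes compared, 3 were higher (*Dusp5*, *Errfi1* and *Rasa3*) and 0 lower in tw18/tw18 against wild type, with a median log2 ratio of 0.11, and 4 of the 10 lay below 0, among them *Il17rd* (FPKM 14.0, 14.4 and 9.29, log2 ratio -0.59) and *Dusp7* (24.9, 22.1 and 19.0, -0.39). *Rasa3*, *Il17rd* and *Dusp7* are named here after their values were seen. *Dusp5*, a nuclear ERK phosphatase, was at FPKM 1.63, 1.48 and 6.01 (log2 ratio 1.88), *Errfi1*, a feedback inhibitor of EGF receptors, at 17.5, 13.4 and 37.1 (1.09), and *Dusp9*, which stayed inside the fold, at 18.6, 24.7 and 33.4 (0.84). Of 15 genes of the ERK response, 5 were higher and 1 was lower, with a median of 0.35, beside 15.1% higher and 6.94% lower in the whole table. *Ets1* was at FPKM 1.80, 2.77 and 6.51 (log2 ratio 1.85) and *Junb*, an AP-1 subunit, at 3.54, 2.45 and 8.67 (1.29), whereas *Ccnd1*, the cyclin of the early cell cycle, was at 54.7, 46.8 and 19.6 (-1.48). Genes past the fold in this list thus lay on both sides.

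**Figure D5:**
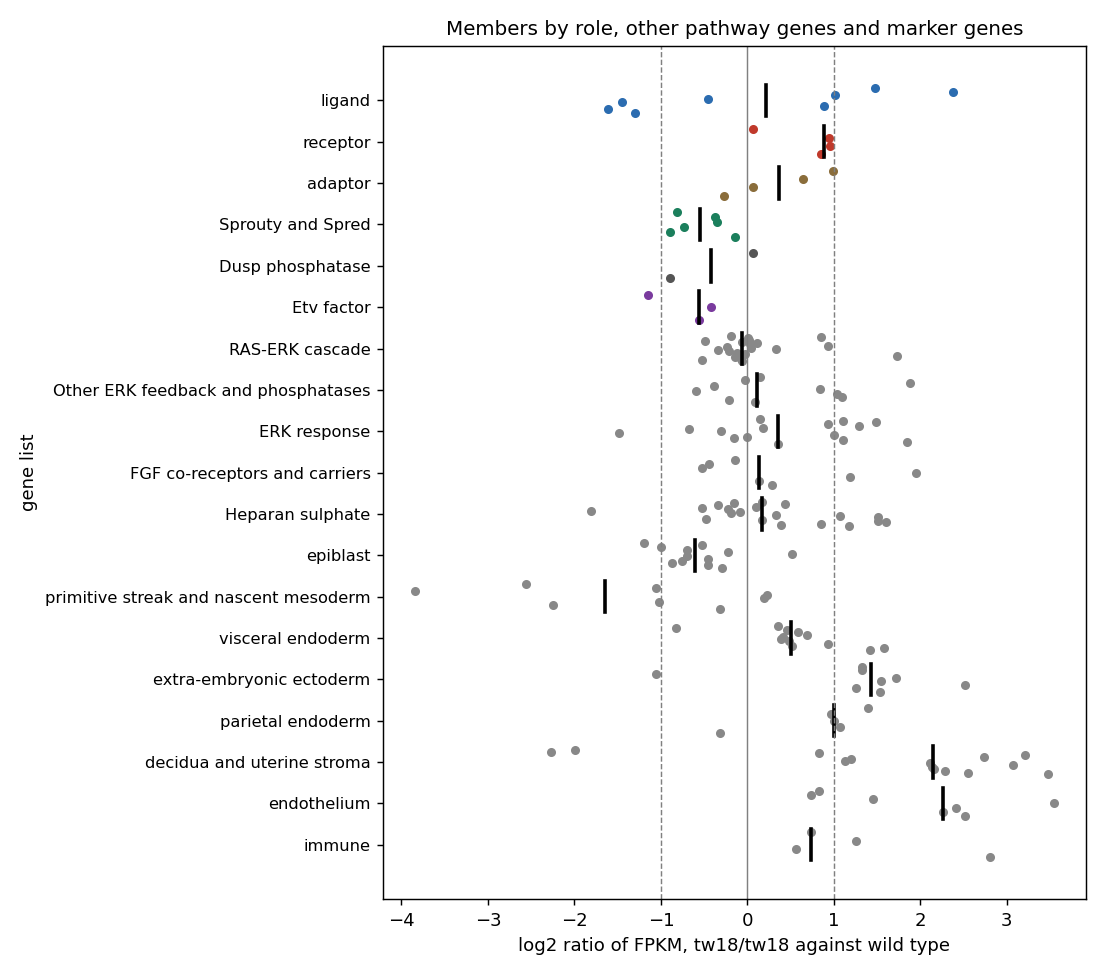
Log2 ratio of FPKM in tw18/tw18 against wild type for the ligands, receptors, adaptors, feedback and target genes (coloured), further pathway genes and marker lists (grey), with a point per gene, a black bar at the list median and dashed lines at a log2 ratio of 1 in either direction. Genes listed at 0 in 1 library of the pair count in the median but have no point. As deposited, the median was -0.55 for the Sprouty and Spred genes, -0.56 for the Etv genes and -0.61 for the epiblast markers. The receptors had a median of 0.89, above the visceral endoderm (0.50) and immune markers (0.73). Parietal endoderm and extra-embryonic ectoderm markers (1.43 for the latter) had higher medians than the receptors. Whether lists with similar medians share a cause was not tested.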

How the data were processed

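The authors mapped 50 bp paired-end reads of TotalScript libraries to mm10 (GRCm38) with TopHat2 and Bowtie 1.0.0 and calculated the deposited FPKM values with Cuffdiff (Cufflinks 2.2.1), as the study's methods and the submitters' processing notes state. The annotation, library normalization and strand setting are not given in the sources used here, so a gene and an antisense partner cannot be told apart. Genotypes were taken from the labels, with 1 library each. Log2 ratios were computed from the deposited FPKM without a pseudocount. Approximate fragment numbers came from the step of low FPKM values (86.5% to 87.4% of the low values lay within 0.2 of a whole fragment) and the median GENCODE M21 transcript length, using scipy 1.17.1, pandas 2.3.3 and numpy 2.4.6 under Python 3.11.15. The step was chosen to bring these same low values closest to whole fragments, so that percentage is not an independent check of it. Figures were made in matplotlib 3.10.9. The call rule was tested on data simulated with counting error only, for genes above FPKM 5 in wild type and changes well past the fold. That simulation does not bear on genes near the fold or at lower FPKM. Alternatives were 2 pseudocounts, 2 FPKM minimums, 3 scalings, a stricter fold, shares in place of levels, and, chosen after seeing the data, an FPKM minimum over the 3 libraries. Values are given for every gene that reached FPKM 1, and of each further pathway list for the 3 genes with the largest log2 ratio between tw18/tw18 and wild type among those at FPKM 5 or more in either library. Immune and blood markers were among the lists. The 3 blood genes are globins with near-identical copies, so only their summed FPKM of 52.2, 54.5 and 175 in wild type, tw18/+ and tw18/tw18 is given. Genes and lists were chosen with earlier results of these data known.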

Additional observations from a re-analysis of the deposited data

How the results depend on the processing

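For tw18/tw18 against wild type the number of genes past the fold was 7 of 27 as reported, 4 with a pseudocount of 1 (13.6% of all genes), 12 of 35 with no minimum FPKM (35.0%), 11 with equal FPKM sums (24.2%) and 1 with a log2 ratio of 2 as threshold (8.04%). The higher and lower numbers were 3 and 4 as deposited and 0 and 4 with a pseudocount of 1. They were 5 and 4 after centring on the median (-0.05), 8 and 3 with equal sums (shift -0.21), and 9 and 0 relative to the epiblast list (shift -0.61), where 7 genes changed sign. In tw18/tw18 against tw18/+ 9 of 27 genes with a ratio changed sign relative to the epiblast list. For tw18/+ against wild type 3 of 28 became 1 with a pseudocount of 1 (4.43% of all genes), 10 of 36 with no minimum (25.7%) and 0 of 20 with a minimum of FPKM 5 (2.75%). For tw18/tw18 against tw18/+ 9 of 29 became 14 of 35 with no minimum (33.5%), 5 of 23 with a minimum of FPKM 5 (12.4%) and 3 with a log2 ratio of 2 (6.27%). With the minimum of FPKM 1 taken over the 3 libraries, an alternative chosen after seeing the data, the numbers were 9, 4 and 9 of 29 genes (22.4%, 11.7% and 21.0% of all genes). As shares of the summed receptor FPKM, the log2 ratios of tw18/tw18 to wild type were -0.30 for *Fgfr1*, 0.56 for *Fgfr2*, 0.58 for *Fgfr3* and 0.47 for *Fgfr4*. The cause of these moves was not tested beyond the construction of each alternative. No paired analysis was possible because each genotype has 1 library, and none could be left out. Ratios resting on fewer than about 100 fragments in a library (*Fgf2*, *Fgf3*, *Fgf11*, *Fgf17*, *Fgfr3* and *Frs3* among genes that reached FPKM 1) are limited by depth.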

Other observations

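Further lists held genes that shape FGF binding outside the cell. Of 20 genes of heparan sulphate synthesis, carriage and trimming, 5 were higher and 1 lower in tw18/tw18 against wild type, with a median log2 ratio of 0.17, beside 15.1% higher and 6.94% lower in the whole table. *Sdc4*, a cell-surface heparan sulphate carrier, was at FPKM 6.83 in wild type, 8.45 in tw18/+ and 20.7 in tw18/tw18 (log2 ratio 1.60). *Gpc6*, a glypican, was at 4.67, 4.47 and 13.3 (1.51), and *Sulf2*, a secreted sulphatase, at 28.8, 34.2 and 65.3 (1.18). In all 3 genes wild type and tw18/+ were closer to each other than to tw18/tw18. Of 7 co-receptors and carriers compared, 2 were higher and 0 lower, with a median of 0.13. *Flrt3*, a membrane protein that binds FGF receptors, was at FPKM 12.0, 12.0 and 27.4 (1.19), whereas *Fgfrl1*, a receptor without a kinase, was at 7.08, 4.22 and 5.20 (-0.44) and *Cdh2*, N-cadherin, at 20.0, 21.0 and 24.3 (0.28). Markers of decidua and uterine stroma (11 of 14) and of endothelium (5 of 7) were higher in the same library, and their part in these values was not tested. No test across samples was possible.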
